A study of Mus musculus with 10 samples.

Results

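Recruited and scar-associated macrophage markers are genes used to mark the monocyte-derived macrophages that enter an injured liver. Some of them are not made by macrophages alone. They were taken as the 10 genes Trem2, Gpnmb, Spp1, Lgals3, Mmp12, Ly6c2, Fabp5, Itgam, Itgax and Msr1, found by their symbols among the 55291 genes of the count table. All 10 were among the 17015 genes with enough counts to be tested. The study asked how loss of Bap1, which encodes a deubiquitinase, in hepatocytes changes the liver before and after toxic injury, and bulk RNA-seq was made from 10 livers. The mice were females that carried a Cas9 gene behind a lox-flanked stop cassette and were 16 to 20 weeks old when they received the virus. The virus, AAV8-U6-sgRNA-TBG-Cre, brought a guide RNA and Cre under the hepatocyte promoter TBG, so that Cas9 was switched on in hepatocytes and not by design in macrophages. The guide was a non-targeting control (NTC) or a guide against Bap1 (sgBap1). On day 10 the mice were injected intraperitoneally with carbon tetrachloride (CCl4) diluted in olive oil, or with olive oil alone as vehicle (Veh), and the livers were taken 48 h later. There were 3 livers each in the groups NTC-CCl4 and sgBap1-CCl4 and 2 each in the groups NTC-Veh and sgBap1-Veh, with 3.30e+07 to 5.22e+07 estimated counts per liver. The RNA is that of whole liver tissue, so that the cells a transcript came from were not observed.

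In a healthy liver most macrophages are resident Kupffer cells, which sit in the sinusoids. After toxic injury, monocytes follow the chemokine Ccl2 through their receptor Ccr2 into the tissue, lose Ly6c2 as they mature, and take up dead cells and lipid. Macrophages that express Trem2, Gpnmb, Spp1 and Fabp5 have been described beside scars and in fatty liver disease, where they handle lipid, degrade matrix and signal to stellate cells.

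Levels are given in CPM, the counts of a gene in 1e+06 counts of the TMM-normalized library, for replicates 1 and 2 or 1 to 3 of a group in that order. Differences are log2 fold changes with a standard error (SE). Adjusted p-values come from edgeR's quasi-likelihood test, adjusted by Benjamini and Hochberg's method across all 17015 genes, unless another tool is named, and a gene is called when its adjusted p is under 0.05. The floor of detection was taken as 3 counts, equal to 0.0511 to 0.112 CPM depending on the liver. The sources do not say in so many words that each liver came from a different mouse, so that the p-values measure the spread between these samples.

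Bap1 itself measured 34.8 and 34.8 CPM in the NTC-Veh livers, 17.5 and 19.5 CPM in the sgBap1-Veh livers, 30.1, 31.5 and 29.5 CPM in the NTC-CCl4 livers and 16.99, 21.8 and 19.1 CPM in the sgBap1-CCl4 livers. Every sgBap1 liver lay below every NTC liver. Among vehicle livers Bap1 fell with its guide (-0.91 on the log2 scale, SE 0.12, adjusted p = 0.0172). Among CCl4 livers the value was -0.65 (SE 0.09, adjusted p = 0.0307), or -0.75 without sgBap1-CCl4 replicate 2 (adjusted p = 0.0277). With a replicate block the 3 genes called between genotypes with CCl4 were all higher, so that the CCl4 call of Bap1 was lost there. The vehicle call was lost without NTC-Veh replicate 2 or sgBap1-Veh replicate 1, and the CCl4 call without NTC-CCl4 replicate 1, 2 or 3 or sgBap1-CCl4 replicate 1 or 3, with adjusted p up to 0.118 and 0.148.

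One library stood apart. In sgBap1-CCl4 replicate 2, the fat-cell genes Adipoq, Plin1, Retn, Cfd and Cidea measured 36.4, 34.5, 17.7, 144 and 29.4 CPM. In the other 9 livers Adipoq, the hormone of fat cells, reached at most 0.0425 CPM, and Cidea at most 0.547 CPM. The 7 fat-cell genes of the list summed to 759 and 612 CPM in NTC-Veh, 958 and 1553 CPM in sgBap1-Veh, 25.9, 54.8 and 36.5 CPM in NTC-CCl4 and 14.5, 493 and 51.3 CPM in sgBap1-CCl4 livers, of which Car3, an enzyme that hepatocytes express as well, held 94.2% over all livers. In sgBap1-CCl4 replicate 2 Car3 measured 231 CPM of this sum, so that the other 6 genes made up much of it there. Fabp4, which fat cells and macrophages share, measured 13.3, 256 and 13.8 CPM in the sgBap1-CCl4 livers. For the CCl4 response of sgBap1 livers, the median of each list is therefore followed by the median without this liver (without replicate 2), and marker differences between genotypes with CCl4 are given with and without it. The part of fat tissue in them was not tested.

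CCl4 injury raised 9 of the 10 markers in livers with the control guide. In NTC-CCl4 against NTC-Veh livers, 9 were called higher and 0 lower, where 53.8% of all tested genes were called in either direction. Their median log2 fold change was 3.88, against 0.03 over all tested genes. In sgBap1-CCl4 against sgBap1-Veh livers, 9 were again called higher and 0 lower, beside 56.7% of all tested genes, with a median of 3.52 against 0.04. Without sgBap1-CCl4 replicate 2 the count was 9 in both comparisons, and the medians were 3.88 and 3.40. Fabp5 was the exception in both. Whether more cells carried these transcripts or each cell carried more of them cannot be told apart in whole tissue.

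Summed over the 10 markers, the level was 234 and 234 CPM in NTC-Veh, 171 and 128 CPM in sgBap1-Veh, 982, 889 and 1062 CPM in NTC-CCl4 and 1109, 1228 and 967 CPM in sgBap1-CCl4 livers. All 6 CCl4 livers lay above all 4 vehicle livers. Each marker but Fabp5 was also higher in every CCl4 than in every vehicle liver of its genotype. Of all tested genes, 36.7% were so in NTC and 37.3% in sgBap1 livers. Another 35.0% and 34.9% were lower in every CCl4 liver. The sum was lower in both sgBap1-Veh than in both NTC-Veh livers, where Fabp5 made up most of it. Scaling by library size alone in place of TMM shifted the median over all tested genes, as a log2 fold change with CCl4, to 0.50 in NTC and 0.52 in sgBap1 livers. It called 8462 of 10492 genes higher with CCl4 in NTC livers, against 4679 of 9151 with TMM, and 8596 of 10946 against 4940 of 9656 in sgBap1 livers. The 9 markers were called higher under both scalings.

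**Figure D1:**
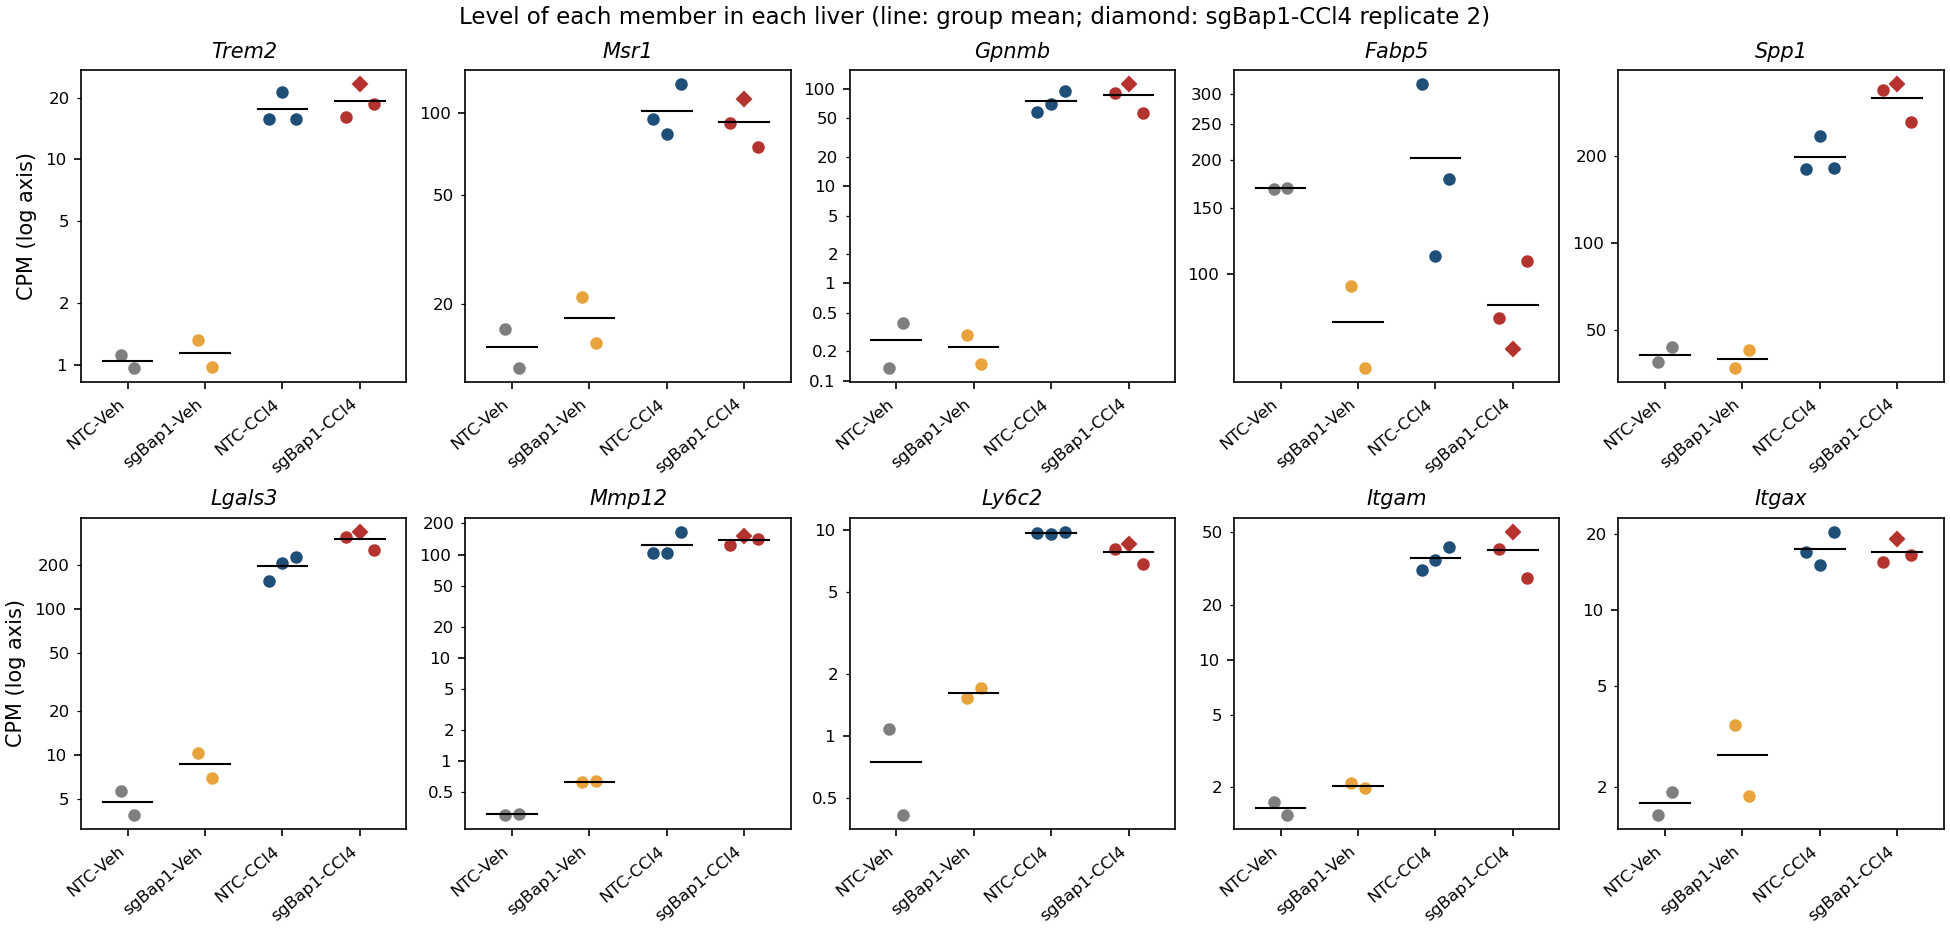
Level of each of the 10 markers in each liver, in CPM on a log axis, by group. Points are livers, lines are group means, and the diamond is sgBap1-CCl4 replicate 2. For each marker but Fabp5, the 6 CCl4 livers sit above the 4 vehicle livers. Within a genotype, 36.7% (NTC) and 37.3% (sgBap1) of all tested genes were higher in every CCl4 liver.

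Because 9 of these genes moved together, the sequence upstream of their starts was read from RefSeq (GRCm38.p6) and searched on both strands for 3 short motifs of factors known from macrophages. These were TGANTCA, GAGGAAGT, bound by PU.1, and CACGTG, the E-box of lysosomal genes. TGANTCA takes in the AP-1 sites TGAGTCA and TGACTCA, but with any base at N it is wider than them. Of the 250 bases before each of 32851 annotated starts, 6.75% held TGANTCA, 2.44% GAGGAAGT and 6.02% CACGTG. The table of RefSeq promoters used here held 11 starts for 8 of the 10 markers, and no entry for Fabp5 and Msr1. TGANTCA lay in 3 of the 11 windows, as TGAGTCA in Mmp12 and Itgax and as TGAATCA, outside the AP-1 sites, in Trem2. GAGGAAGT lay in 4, of Spp1, Mmp12 and Ly6c2, whose 2 windows overlap. CACGTG lay in 0 of the 11, and the windows of Gpnmb, Lgals3 and Itgam held none of the 3 motifs. A match says that these letters are present, and binding was not measured.

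The windows below show 1 match each, in capitals, 5′ to 3′ on the strand of the gene. Trem2 is chr17:48346151-48346400 on the + strand, with the match from 9 to 3 bases before the start. Spp1 is chr5:104434861-104435110 on the + strand, with the match from 113 to 106 bases before the start. Mmp12 is chr9:7344147-7344396 on the + strand, with GAGGAAGT read on the other strand from 88 to 81 bases before the start. Ly6c2 is chr15:75111972-75112221 on the − strand, with the match from 108 to 101 bases before the start. Itgax is chr7:128129300-128129549 on the + strand, with the match from 56 to 50 bases before the start.
Trem2: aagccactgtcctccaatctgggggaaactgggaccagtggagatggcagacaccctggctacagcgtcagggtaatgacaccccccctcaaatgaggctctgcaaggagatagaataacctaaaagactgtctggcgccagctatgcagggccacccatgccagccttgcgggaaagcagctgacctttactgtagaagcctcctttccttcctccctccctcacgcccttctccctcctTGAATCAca
Spp1: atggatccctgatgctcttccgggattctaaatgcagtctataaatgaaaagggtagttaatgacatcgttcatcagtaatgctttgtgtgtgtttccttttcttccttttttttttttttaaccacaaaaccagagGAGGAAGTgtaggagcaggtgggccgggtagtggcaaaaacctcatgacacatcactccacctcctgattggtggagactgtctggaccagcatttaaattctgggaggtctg
Mmp12: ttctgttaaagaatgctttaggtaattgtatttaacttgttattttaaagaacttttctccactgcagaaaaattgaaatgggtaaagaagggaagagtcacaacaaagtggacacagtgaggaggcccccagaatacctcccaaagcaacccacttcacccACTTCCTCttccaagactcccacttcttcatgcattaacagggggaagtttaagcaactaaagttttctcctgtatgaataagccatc
Ly6c2: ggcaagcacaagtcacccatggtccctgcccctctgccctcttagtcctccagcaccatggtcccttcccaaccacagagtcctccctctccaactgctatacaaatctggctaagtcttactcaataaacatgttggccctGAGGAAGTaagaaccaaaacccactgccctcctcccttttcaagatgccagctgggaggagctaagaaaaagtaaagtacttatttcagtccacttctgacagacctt
Itgax: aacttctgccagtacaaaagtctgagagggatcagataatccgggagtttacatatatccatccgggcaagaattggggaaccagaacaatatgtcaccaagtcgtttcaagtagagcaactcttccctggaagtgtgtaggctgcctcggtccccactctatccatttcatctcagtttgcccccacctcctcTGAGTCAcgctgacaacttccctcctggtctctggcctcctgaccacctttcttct

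Of the surface receptors that bind lipid and debris, Trem2 (chromosome 17, 48346401 to 48354147) signals through the adaptor Tyrobp when it meets lipids of dying cells. It measured 1.12 and 0.970 CPM in the NTC-Veh livers, 1.32 and 0.973 CPM in the sgBap1-Veh livers, 15.7, 21.3 and 15.7 CPM in the NTC-CCl4 livers and 16.1, 23.2 and 18.5 CPM in the sgBap1-CCl4 livers. The vehicle livers were all low, the CCl4 livers all high, and the genotypes overlapped under both treatments. With CCl4, Trem2 rose 16.8-fold in NTC livers (log2 fold change 4.07, SE 0.25, adjusted p = 1.63e-06). In sgBap1 livers it rose 16.5-fold (log2 fold change 4.05, SE 0.25, adjusted p = 1.34e-06). Its sgBap1 against NTC log2 fold change was 0.16 with vehicle (adjusted p = 0.900) and 0.13 with CCl4 (adjusted p = 0.782), or -0.03 without sgBap1-CCl4 replicate 2. Msr1 (chromosome 8, 39581685 to 39642673), a scavenger receptor for modified lipoproteins, was already present in vehicle livers. It measured 16.1 and 11.7 CPM in the NTC-Veh livers, 21.1 and 14.4 CPM in the sgBap1-Veh livers, 94.7, 83.3 and 127 CPM in the NTC-CCl4 livers and 91.7, 112 and 74.7 CPM in the sgBap1-CCl4 livers. Again all CCl4 livers were above all vehicle livers and the genotypes overlapped. The rise with CCl4 was 7.32-fold in NTC livers (log2 fold change 2.87, SE 0.28, adjusted p = 3.52e-05). It was 5.21-fold in sgBap1 livers (log2 fold change 2.38, SE 0.27, adjusted p = 8.61e-05). Between genotypes Msr1 had log2 fold changes of 0.36 with vehicle and -0.13 with CCl4, the latter -0.29 without sgBap1-CCl4 replicate 2, and neither was called. The vehicle value was 0.05 without sgBap1-Veh replicate 1 and 0.61 without NTC-Veh replicate 1.

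Among the markers of lipid loading, Gpnmb (chromosome 6, 49036546 to 49070929) encodes a membrane glycoprotein of lysosomes and melanosomes. It measured 0.136 and 0.388 CPM in the NTC-Veh livers, 0.296 and 0.150 CPM in the sgBap1-Veh livers, 57.6, 70.8 and 95.7 CPM in the NTC-CCl4 livers and 91.3, 112 and 57.3 CPM in the sgBap1-CCl4 livers. The vehicle levels stand for 4 to 14 estimated counts per liver, close to the floor, while the CCl4 livers had 2697 to 6529. Gpnmb rose 283-fold with CCl4 in NTC livers (log2 fold change 8.14, SE 0.54, adjusted p = 6.96e-06). In sgBap1 livers the rise was 367-fold (log2 fold change 8.52, SE 0.56, adjusted p = 6.10e-06). The size of both folds hangs on the few vehicle counts: without NTC-Veh replicate 2 the first was 537-fold, and without sgBap1-Veh replicate 1 the second was 569-fold. Under CCl4 the genotypes overlapped, with a log2 fold change of 0.22 (adjusted p = 0.780), or -0.01 without sgBap1-CCl4 replicate 2. Fabp5 (chromosome 3, 10012548 to 10016607) encodes a cytosolic carrier of fatty acids and was the one marker that CCl4 did not move past the test. It measured 168 and 169 CPM in the NTC-Veh livers, 93.2 and 56.8 CPM in the sgBap1-Veh livers, 317, 112 and 178 CPM in the NTC-CCl4 livers and 76.8, 63.6 and 109 CPM in the sgBap1-CCl4 livers. Within each genotype vehicle and CCl4 livers overlapped, whereas every sgBap1 liver lay below every NTC liver of the same treatment. The CCl4 log2 fold change was 0.26 in NTC (adjusted p = 0.628) and 0.15 in sgBap1 livers (adjusted p = 0.790), and its sign turned to -0.22 in NTC without NTC-CCl4 replicate 1, the highest liver. For sgBap1 against NTC the log2 fold change was -1.17 with vehicle (SE 0.47, adjusted p = 0.353). With CCl4 it was -1.29 (SE 0.38, adjusted p = 0.209), and -1.13 without sgBap1-CCl4 replicate 2 (adjusted p = 0.506), so neither difference was called. With 1 liver left out, the vehicle value ran from -1.57 without sgBap1-Veh replicate 1 to -0.86 without sgBap1-Veh replicate 2. The CCl4 value ran from -1.58 without NTC-CCl4 replicate 2 to -0.80 without NTC-CCl4 replicate 1. Fabp5 shares 5.48% of its stretches of 50 bases, the read length, with other genes, 5.10% with the pseudogene Gm6166, which measured 0.548 to 6.86 CPM.

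Of the secreted markers, Spp1 (chromosome 5, 104435118 to 104441050) encodes osteopontin, a ligand of integrins and Cd44 that bile duct cells make as well. It measured 38.7 and 43.6 CPM in the NTC-Veh livers, 37.1 and 42.6 CPM in the sgBap1-Veh livers, 180.3, 234 and 181 CPM in the NTC-CCl4 livers and 335, 352 and 260.4 CPM in the sgBap1-CCl4 livers. The vehicle livers of both genotypes were alike, and under CCl4 every sgBap1 liver lay above every NTC liver. Spp1 rose 4.82-fold with CCl4 in NTC livers (log2 fold change 2.27, SE 0.18, adjusted p = 4.63e-06). In sgBap1 livers it rose 7.93-fold (log2 fold change 2.99, SE 0.18, adjusted p = 1.33e-06). The CCl4 log2 fold change in sgBap1 minus that in NTC livers was not called and ran from 0.62 to 0.85 over the alternatives. The sgBap1-CCl4 against NTC-CCl4 difference was 1.59-fold (log2 fold change 0.67, SE 0.14, adjusted p = 0.0887), short of the threshold, and 0.59 without sgBap1-CCl4 replicate 2 (adjusted p = 0.215). It passed with DESeq2's Wald test (adjusted p = 0.00117) and without the filter on low counts, and the adjusted p ranged from 0.00117 to 0.397 over the alternatives. Spp1 shares 11.6% of its stretches of 50 bases with Gm42793, an overlapping gene on the same strand that measured at most 1.00 CPM.

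Lgals3 (chromosome 14, 47367751 to 47386160) encodes galectin-3, a lectin that binds sugars of the cell surface. It measured 5.69 and 3.91 CPM in the NTC-Veh livers, 10.3 and 6.999 CPM in the sgBap1-Veh livers, 155, 205 and 226 CPM in the NTC-CCl4 livers and 309, 336 and 253 CPM in the sgBap1-CCl4 livers. CCl4 livers were far above vehicle livers, and under each treatment every sgBap1 liver was above every NTC liver. The rise with CCl4 was 40.7-fold in NTC livers (log2 fold change 5.35, SE 0.28, adjusted p = 1.19e-06) and 34.5-fold in sgBap1 livers (log2 fold change 5.11, SE 0.28, adjusted p = 1.13e-06). Between genotypes the log2 fold change was 0.85 with vehicle (adjusted p = 0.206) and 0.62 with CCl4 (adjusted p = 0.210), or 0.53 without sgBap1-CCl4 replicate 2. The vehicle difference passed with DESeq2's Wald test (adjusted p = 0.0294, range over the alternatives 0.0294 to 0.603), and was 0.54 without sgBap1-Veh replicate 1 and 1.15 without NTC-Veh replicate 1. Mmp12 (chromosome 9, 7344381 to 7369499) encodes the macrophage metalloelastase, which cleaves elastin. It measured 0.299 and 0.305 CPM in the NTC-Veh livers, 0.619 and 0.636 CPM in the sgBap1-Veh livers, 104, 103 and 167 CPM in the NTC-CCl4 livers and 124, 151 and 142 CPM in the sgBap1-CCl4 livers. It was near the floor in vehicle livers and high in each CCl4 liver, and with vehicle both sgBap1 livers were above both NTC livers. Mmp12 rose 408-fold with CCl4 in NTC livers (log2 fold change 8.67, SE 0.34, adjusted p = 4.79e-07). In sgBap1 livers the rise was 221-fold (log2 fold change 7.79, SE 0.31, adjusted p = 3.13e-07). The vehicle genotype difference, 1.05 on the log2 scale (adjusted p = 0.426), rests on 11, 11, 23 and 17 counts in the NTC-Veh and sgBap1-Veh livers. With CCl4 it was 0.16 (adjusted p = 0.724), or 0.10 without sgBap1-CCl4 replicate 2, and the genotypes overlapped.

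Ly6c2 (chromosome 15, 75108158 to 75111970), a surface protein, is high on the inflammatory monocytes that enter tissue. It measured 1.09 and 0.416 CPM in the NTC-Veh livers, 1.53 and 1.72 CPM in the sgBap1-Veh livers, 9.70, 9.58 and 9.84 CPM in the NTC-CCl4 livers and 8.12, 8.61 and 6.84 CPM in the sgBap1-CCl4 livers. Vehicle livers were lowest in NTC and higher in both sgBap1 livers, while under CCl4 all 3 sgBap1 livers were below all 3 NTC livers. With CCl4, Ly6c2 rose 12.8-fold in NTC livers (log2 fold change 3.68, SE 0.30, adjusted p = 6.60e-06), or 23.2-fold without NTC-Veh replicate 1. In sgBap1 livers it rose 4.84-fold (log2 fold change 2.28, SE 0.28, adjusted p = 6.70e-05). The interaction, the CCl4 log2 fold change in sgBap1 minus that in NTC livers, was -1.41 (SE 0.39, adjusted p = 0.209), not called. It was -2.26 without NTC-Veh replicate 1 (adjusted p = 0.0524) and -0.88 without NTC-Veh replicate 2. DESeq2's Wald test called it (adjusted p = 0.0108, range over the alternatives 0.0108 to 0.378). With vehicle the sgBap1 against NTC log2 fold change was 1.10 (adjusted p = 0.190), and it passed without NTC-Veh replicate 1 (1.96, adjusted p = 0.0377) and with DESeq2 (adjusted p = 0.0212, range 0.0212 to 0.499). Without NTC-Veh replicate 2 it was 0.57. With CCl4 it was -0.30 (adjusted p = 0.571), or -0.37 without sgBap1-CCl4 replicate 2. Ly6c2 is uncertain to the extent that 13.9% of its stretches of 50 bases also occur in its neighbour Ly6c1, which measured 0.0831 to 3.32 CPM, highest in sgBap1-CCl4 replicate 2.

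Itgam and Itgax encode the integrin chains CD11b and CD11c, which pair with Itgb2 and mark myeloid cells and, for Itgax, also dendritic cells. Itgam (chromosome 7, 128062640 to 128118491) measured 1.66 and 1.41 CPM in the NTC-Veh livers, 2.10 and 1.98 CPM in the sgBap1-Veh livers, 31.2, 35.3 and 41.6 CPM in the NTC-CCl4 livers and 40.7, 50.5 and 28.3 CPM in the sgBap1-CCl4 livers. CCl4 and vehicle livers were fully apart, with a rise of 23.4-fold in NTC livers (log2 fold change 4.55, SE 0.28, adjusted p = 2.41e-06). In sgBap1 livers Itgam rose 19.5-fold (log2 fold change 4.28, SE 0.28, adjusted p = 2.80e-06). Both sgBap1-Veh livers were above both NTC-Veh livers, by a log2 fold change of 0.41 (adjusted p = 0.697). With CCl4 the genotypes overlapped, with 0.15 (adjusted p = 0.783), or -0.06 without sgBap1-CCl4 replicate 2. Gm49368, an overlapping gene on the same strand, shares 66.3% of the stretches of 50 bases of Itgam but was assigned at most 0.364 CPM, so that the split between them is uncertain. Itgax (chromosome 7, 128129547 to 128150657) measured 1.55 and 1.91 CPM in the NTC-Veh livers, 3.53 and 1.83 CPM in the sgBap1-Veh livers, 16.99, 15.1 and 20.5 CPM in the NTC-CCl4 livers and 15.5, 19.1 and 16.5 CPM in the sgBap1-CCl4 livers. Here too the treatments were apart, and sgBap1-Veh replicate 1 was the highest of the vehicle livers. CCl4 raised Itgax 10.1-fold in NTC livers (log2 fold change 3.33, SE 0.26, adjusted p = 6.39e-06) and 6.24-fold in sgBap1 livers (log2 fold change 2.64, SE 0.25, adjusted p = 1.67e-05). Between genotypes the Itgax values were 0.66 with vehicle (adjusted p = 0.392) and -0.04 with CCl4 (adjusted p = 0.961), the latter -0.13 without sgBap1-CCl4 replicate 2. The vehicle value rests on sgBap1-Veh replicate 1, being 0.08 without it and 1.02 without sgBap1-Veh replicate 2. With its neighbour Itgad, Itgax has 8.02% of stretches in common, and Itgad reached at most 0.390 CPM.

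Across the 10 markers, loss of Bap1 gave no called difference. In sgBap1-Veh against NTC-Veh livers, edgeR called 0 of 10, beside 0.523% of all tested genes, with 4 markers and 2139 genes at an unadjusted p under 0.05, and DESeq2 called 2 markers and 562 genes. The median log2 fold change was 0.39, against 0.02 over all tested genes. In this comparison 5 markers did not overlap between genotypes, Lgals3, Mmp12, Ly6c2 and Itgam higher and Fabp5 lower, where 21.7% of all tested genes were higher and 19.2% lower in both sgBap1-Veh livers. In sgBap1-CCl4 against NTC-CCl4 livers, edgeR called 0 of 10, beside 0.253% of all tested genes, with 3 markers and 2288 genes at an unadjusted p under 0.05, and DESeq2 called 1 marker and 502 genes. Here Spp1 and Lgals3 were higher and Ly6c2 and Fabp5 lower without overlap, where 10.1% and 10.2% of all tested genes were. The median was 0.14, or -0.04 without sgBap1-CCl4 replicate 2. The counts of all genes called are themselves small and depend on single livers: 89 genes with vehicle became 0 without NTC-Veh replicate 2 or sgBap1-Veh replicate 1 and 147 without sgBap1-CCl4 replicate 2, and 43 with CCl4 became 1 without NTC-CCl4 replicate 1. For the interaction, edgeR called 0 of the 10 markers and 0% of all tested genes, with 2 markers and 1796 genes at an unadjusted p under 0.05, and DESeq2 called 1 marker and 420 genes. The comparisons share livers, since NTC-Veh is the control both of CCl4 and of sgBap1, so that their values for a gene are not independent.

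**Figure D2:**
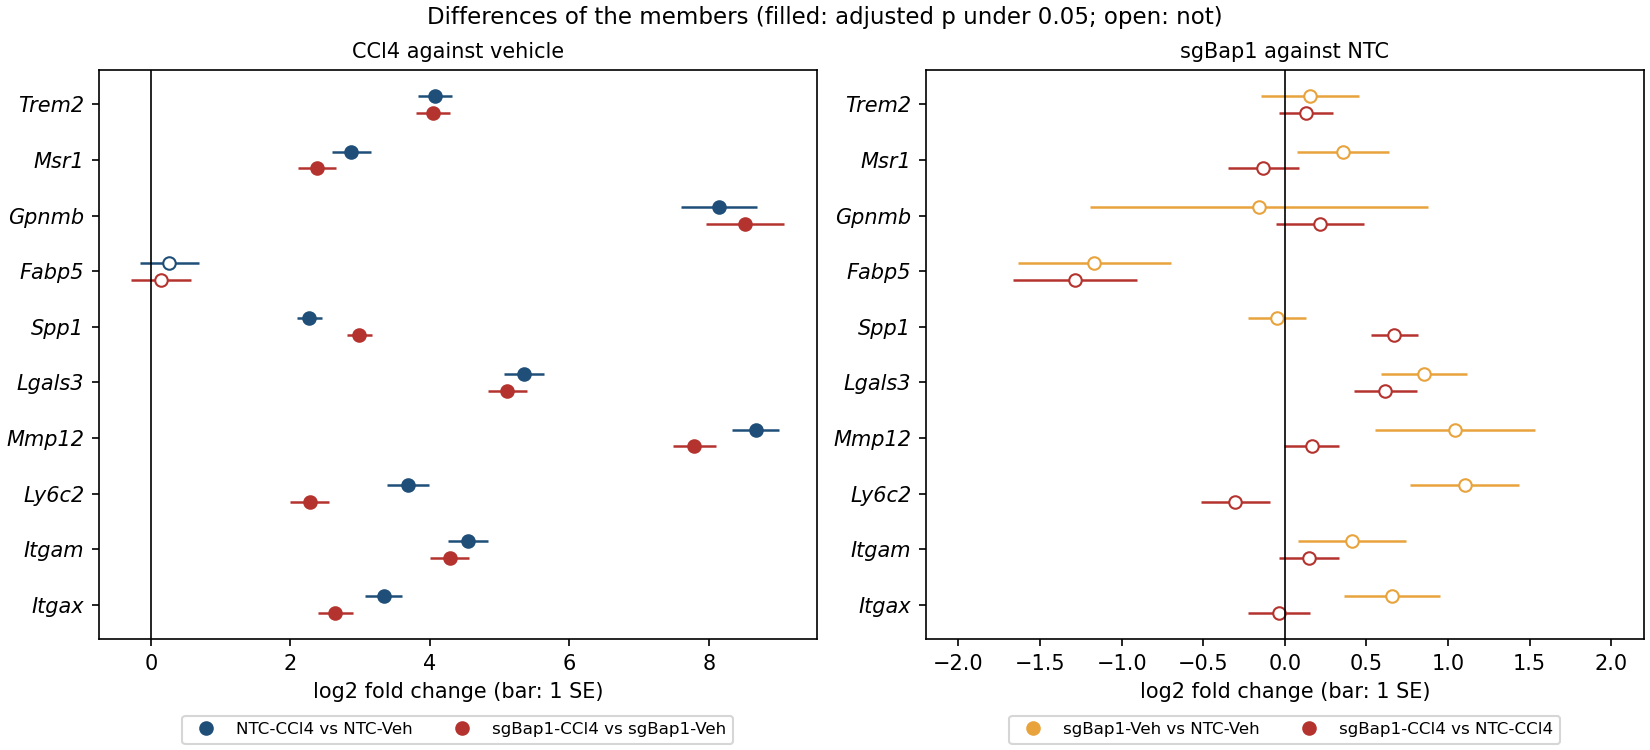
Log2 fold change of each marker (points) with 1 SE (bars), with CCl4 against vehicle on the left and sgBap1 against NTC on the right. Filled points passed the test at an adjusted p under 0.05: 9 of 10 in each CCl4 comparison and 0 of 10 in each genotype comparison. The axes differ in scale.

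Levels of different genes can be compared roughly in CPM per kb of exon annotated in GENCODE vM21. The length counts all annotated exon bases of a gene, whichever of its transcripts were present. On this scale NTC-Veh livers held mostly Fabp5 at 47.3 ± 0.351 and Spp1 at 25.0 ± 2.11 (mean ± SD, n = 2). Lgals3 followed at 2.58 ± 0.679 and Msr1 at 2.19 ± 0.493 CPM per kb, whose livers overlapped, and Mmp12 and Gpnmb came last at 0.0418 ± 0.000521 and 0.0402 ± 0.0273. In sgBap1-Veh livers Spp1 came first at 24.2 ± 2.32, with Fabp5 at 21.0 ± 7.21 CPM per kb (n = 2), and these overlapped. In NTC-CCl4 livers the order was led by Spp1 at 120.5 ± 18.7 and Lgals3 at 105 ± 19.5 CPM per kb (n = 3), which overlapped, with Fabp5 next at 56.8 ± 29.4. The highest Fabp5 liver, at 88.9 CPM per kb, lay above the lowest Lgals3 liver at 83.6, so that these overlapped too. Mmp12, Msr1 and Gpnmb formed a middle group at 17.2 ± 5.07, 16.02 ± 3.57 and 11.5 ± 2.97 CPM per kb, with overlapping livers. Itgax, Trem2 and Ly6c2 had the lowest levels per kb, 3.65 ± 0.572, 3.56 ± 0.657 and 3.54 ± 0.0469, and also overlapped. The sgBap1-CCl4 livers kept Spp1 and Lgals3 first at 192 ± 29.7 and 161 ± 22.7 CPM per kb, with Fabp5 at 23.3 ± 6.52, close to Mmp12 at 19.2 ± 1.89.

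The partners through which the markers act were mostly called higher with CCl4, like the markers. Of 10 such genes, 8 were called higher and 0 lower with CCl4 in NTC livers (median log2 fold change 1.75). In sgBap1 livers it was 9 and 0 (median 1.38, or 1.33 without replicate 2). For this list and those that follow, 53.8% of all tested genes were called in NTC and 56.7% in sgBap1 livers, in either direction. Summed, they measured 309 and 318 CPM in NTC-Veh, 338 and 312 CPM in sgBap1-Veh, 584, 615 and 666 CPM in NTC-CCl4 and 639, 718 and 623 CPM in sgBap1-CCl4 livers, and Itgb1, an integrin chain of many cell types, held 43.3%. The CCl4 livers were all above the vehicle livers. Itgb2, the chain that pairs with Itgam and Itgax, measured 6.86 and 5.07 CPM in the NTC-Veh livers, 14.8 and 9.39 CPM in the sgBap1-Veh livers, 50.6, 52.3 and 74.8 CPM in the NTC-CCl4 livers and 57.8, 67.8 and 49.99 CPM in the sgBap1-CCl4 livers. It rose 9.91-fold in NTC and 4.81-fold in sgBap1 livers (adjusted p = 1.58e-05 and 8.94e-05). Tyrobp, the adaptor of Trem2, rose 4.13-fold and 2.43-fold (adjusted p = 1.39e-05 and 0.000184), and Cd44, a receptor of osteopontin, 7.80-fold and 4.05-fold (adjusted p = 3.68e-06 and 1.97e-05). With vehicle, Cd44 measured 9.67 and 7.59 CPM in NTC and 20.2 and 15.8 CPM in sgBap1 livers, a log2 fold change of 1.06 (adjusted p = 0.0658). In that comparison 0 of the 10 partners were called by edgeR, with a median of 0.84. Without sgBap1-CCl4 replicate 2, 8 partners were called with CCl4 in sgBap1 livers and 1 between genotypes with vehicle.

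Of 22 other genes known from scar- and lipid-associated macrophages, 14 were called higher and 2 lower with CCl4 in NTC livers (median 1.24), and 13 and 2 in sgBap1 livers (median 1.21, or 0.96 without sgBap1-CCl4 replicate 2). Cd63, a tetraspanin of late endosomes, rose 18.9-fold in NTC and 16.3-fold in sgBap1 livers (adjusted p = 5.64e-07 and 5.29e-07). Apoe, a lipoprotein gene of hepatocytes as well as macrophages, held 68.2% of the summed level of the list, which was 19439 and 17679 CPM in NTC-Veh, 19063 and 20123 CPM in sgBap1-Veh, 10587, 11062 and 10444 CPM in NTC-CCl4 and 11116, 11310.0 and 11681 CPM in sgBap1-CCl4 livers. It fell with CCl4, with log2 fold changes of -1.47 and -1.48 (adjusted p = 2.29e-05 and 2.09e-05). Ctss, the lysosomal protease cathepsin S, measured 29.6 and 24.7 CPM in the NTC-Veh livers, 60.3 and 50.2 CPM in the sgBap1-Veh livers, 134, 148 and 154 CPM in the NTC-CCl4 livers and 133, 159.5 and 145 CPM in the sgBap1-CCl4 livers. It was the gene of this list called in sgBap1-Veh against NTC-Veh livers (log2 fold change 1.03, SE 0.14, adjusted p = 0.0182), a call lost without sgBap1-Veh replicate 1 or NTC-Veh replicate 2 (adjusted p up to 0.138). A replicate block called 0 genes higher in sgBap1-Veh against NTC-Veh livers, so that the Ctss call was lost there too. With CCl4 the genotypes did not stand apart for Ctss (log2 fold change 0.00), and its interaction was -1.02 (adjusted p = 0.0662).

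Genes of monocytes and their recruitment rose with the markers, 14 of 16 called higher in NTC livers and 14 in sgBap1 livers. In both 0 were lower, beside 53.8% and 56.7% of all tested genes called in either direction. The medians were 3.57 and 3.20, the latter 3.17 without replicate 2. Ccr2, the receptor by which monocytes leave the blood, measured 2.07 and 2.38 CPM in the NTC-Veh livers, 3.63 and 3.59 CPM in the sgBap1-Veh livers, 34.9, 41.5 and 33.9 CPM in the NTC-CCl4 livers and 32.2, 37.6 and 33.7 CPM in the sgBap1-CCl4 livers. It rose 16.5-fold in NTC livers (log2 fold change 4.04, SE 0.14, adjusted p = 1.34e-07) and 9.54-fold in sgBap1 livers (log2 fold change 3.25, SE 0.13, adjusted p = 2.64e-07). Its ligand Ccl2 rose 26.0-fold and 10.98-fold (adjusted p = 0.000152 and 0.000446), the first 46.9-fold without NTC-Veh replicate 1. The summed level of the list was 2627 and 2717 CPM in NTC-Veh, 2302 and 2275 CPM in sgBap1-Veh, 3144, 3089 and 3338 CPM in NTC-CCl4 and 3182, 2604 and 2663 CPM in sgBap1-CCl4 livers, but Fn1, a plasma protein of hepatocytes, held 93.0% of it. Between genotypes edgeR called 0 of the 16 with vehicle and with CCl4, with medians of 0.61 and -0.01, the latter -0.10 without replicate 2.

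Genes of macrophages in general had smaller medians than the markers with CCl4. Of 10, 8 were called higher and 1 lower with CCl4 in NTC livers (median 2.13), and 6 and 1 in sgBap1 livers (median 0.80, or 0.72 without replicate 2). Summed, they measured 281 and 269.7 CPM in NTC-Veh, 479 and 342 CPM in sgBap1-Veh, 715, 784 and 910.4 CPM in NTC-CCl4 and 820.1, 979 and 749 CPM in sgBap1-CCl4 livers. Lyz2, the lysozyme of myeloid cells, held 44.1% over the 10 livers together and was the most abundant with CCl4 only. Lyz2 measured 60.7 and 44.3 CPM in the NTC-Veh livers, 112 and 90.8 CPM in the sgBap1-Veh livers, 368, 402 and 455 CPM in the NTC-CCl4 livers and 409, 501 and 349 CPM in the sgBap1-CCl4 livers. The CCl4 livers were all above the vehicle livers. It rose 7.77-fold in NTC and 4.14-fold in sgBap1 livers (adjusted p = 3.20e-06 and 1.71e-05). Adgre1, which encodes the antigen F4/80, measured 11.1 and 8.17 CPM in the NTC-Veh livers, 23.7 and 19.2 CPM in the sgBap1-Veh livers, 26.1, 29.5 and 48.5 CPM in the NTC-CCl4 livers and 25.9, 37.2 and 24.4 CPM in the sgBap1-CCl4 livers. It rose 3.599-fold in NTC livers (adjusted p = 0.00117), and in sgBap1 livers its log2 fold change was 0.44 (adjusted p = 0.232), with an interaction of -1.40 (adjusted p = 0.260). With vehicle, 53.4% of all tested genes had log2 fold changes above 0 in sgBap1 against NTC livers. Genes of a list were measured in the same 4 livers, so that their directions are not independent. All 10 general macrophage genes were above 0, with a median of 1.03, and 1 was called. This was Csf1r, the receptor of the macrophage growth factor, at 35.6 and 30.4 CPM in NTC-Veh and 80.8 and 56.5 CPM in sgBap1-Veh livers (log2 fold change 1.06, SE 0.18, adjusted p = 0.0480). The call held in 2 of 10 fits that left out 1 liver each, those without sgBap1-Veh replicate 2 or sgBap1-CCl4 replicate 2, and the highest adjusted p was 0.251. The Csf1r call was also lost with a replicate block, which called 0 genes higher between genotypes with vehicle. With CCl4 the median between genotypes was 0.01, or -0.11 without sgBap1-CCl4 replicate 2, with 0 called by edgeR.

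Kupffer cell genes were called in both directions. With CCl4, 4 of 12 were called higher and 1 lower in NTC livers (median 0.60), against 2 higher and 6 lower in sgBap1 livers (median -0.52). Of all tested genes, 53.8% were called in NTC and 56.7% in sgBap1 livers, in either direction. Without sgBap1-CCl4 replicate 2, 6 were called in either direction in sgBap1 livers, with a median of -0.65. The summed level was 668 and 496 CPM in NTC-Veh, 918 and 751 CPM in sgBap1-Veh, 974, 826 and 1278 CPM in NTC-CCl4 and 733, 919 and 842 CPM in sgBap1-CCl4 livers, and the iron exporter Slc40a1 held 23.8% over the 10 livers together. In group means Slc40a1 led with vehicle, while Marco and Cd5l were above it with CCl4. Clec4f, a lectin that is particular to Kupffer cells in mice, measured 88.8 and 61.5 CPM in the NTC-Veh livers, 169.8 and 116 CPM in the sgBap1-Veh livers, 60.04, 51.0 and 78.7 CPM in the NTC-CCl4 livers and 47.1, 63.0 and 65.4 CPM in the sgBap1-CCl4 livers. Both sgBap1-Veh livers stood above all others, and with CCl4 Clec4f fell in sgBap1 livers (log2 fold change -1.29, SE 0.24, adjusted p = 0.00169) while its log2 fold change was -0.25 in NTC livers (adjusted p = 0.423). The interaction was -1.04 (adjusted p = 0.326), so that the responses of the genotypes were not shown to differ. Other Kupffer genes rose. Marco, a scavenger receptor, measured 23.7 and 6.10 CPM in the NTC-Veh livers, 35.8 and 19.7 CPM in the sgBap1-Veh livers, 218, 154 and 381 CPM in the NTC-CCl4 livers and 150.2, 251 and 165 CPM in the sgBap1-CCl4 livers. Vehicle livers were all below the CCl4 livers. It rose 16.9-fold in NTC livers (adjusted p = 0.00207), 41.2-fold without NTC-Veh replicate 1 and 10.6-fold without NTC-Veh replicate 2. In sgBap1 livers Marco rose 6.77-fold (adjusted p = 0.00908), a call lost without sgBap1-Veh replicate 2 (adjusted p = 0.0628). Id3, a transcriptional regulator, rose 2.97-fold in NTC and 2.34-fold in sgBap1 livers (adjusted p = 1.31e-05 and 5.47e-05). Cd5l, a secreted scavenger protein, rose 2.91-fold in NTC livers (adjusted p = 0.00296), and its log2 fold change was 0.29 in sgBap1 livers (adjusted p = 0.448). The summed level was lowest in NTC-Veh replicate 2. With vehicle, 12 of 12 Kupffer genes had log2 fold changes above 0 in sgBap1 against NTC livers (median 0.92), beside 53.4% of all tested genes, and edgeR called 0. The part of these shifts in the marker results was not tested.

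Other blood cells were followed by the same counts of CCl4 calls. For these lists and those that follow, 53.8% of all tested genes were called in NTC and 56.7% in sgBap1 livers. Neutrophil genes gave 7 higher and 0 lower of 9 in NTC livers (median 2.08) and 7 and 0 in sgBap1 livers (median 1.85, or 1.73 without replicate 2), with 3 of the 12 listed too low to test. They stood at 12.01 and 6.73 CPM in NTC-Veh, 13.8 and 11.2 CPM in sgBap1-Veh, 33.3, 44.3 and 43.6 CPM in NTC-CCl4 and 46.0, 48.0 and 37.0 CPM in sgBap1-CCl4 livers when summed, and the receptor Csf3r was the most abundant at 35.7%. All CCl4 livers were above all vehicle livers. Dendritic cell genes, which bear on Itgax, gave 4 higher and 0 lower of 9 in NTC livers (median 0.67) and 2 and 3 in sgBap1 livers (median 0.02, or -0.15 without replicate 2). Their sum was 14.5 and 15.5 CPM in NTC-Veh, 21.3 and 19.8 CPM in sgBap1-Veh, 18.2, 18.7 and 20.2 CPM in NTC-CCl4 and 17.4, 19.8 and 17.4 CPM in sgBap1-CCl4 livers, led by the transcription factor Zbtb46 with 40.7%. It was lowest in the NTC-Veh livers. T and NK cell genes gave 2 higher and 0 lower of 7 in NTC livers (median 0.72) and 0 and 0 in sgBap1 livers (median -0.43, or -0.61 without replicate 2). Summed, these came to 4.74 and 2.47 CPM in NTC-Veh, 8.10 and 7.78 CPM in sgBap1-Veh, 6.52, 5.71 and 9.27 CPM in NTC-CCl4 and 5.14, 7.79 and 7.48 CPM in sgBap1-CCl4 livers. The co-receptor Cd4 held 21.3% over the 10 livers together and led with CCl4, whereas Cd3e led in the means of both vehicle groups. B cell genes gave 3 higher and 0 lower of 4 in NTC livers (median 0.98) and 0 and 0 in sgBap1 livers (median -0.16, or -0.03 without replicate 2). Here the sum was 7.43 and 3.46 CPM in NTC-Veh, 9.88 and 8.38 CPM in sgBap1-Veh, 9.93, 8.81 and 11.5 CPM in NTC-CCl4 and 8.65, 7.62 and 9.23 CPM in sgBap1-CCl4 livers. For both lymphocyte lists and the neutrophil list NTC-Veh replicate 2 was the lowest liver.

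Among the cells of the tissue, stellate cell genes gave 6 higher and 0 lower of 8 in NTC livers (median 1.86) and 5 and 0 in sgBap1 livers (median 1.99, or 1.80 without replicate 2). Their summed level was 229.5 and 276 CPM in NTC-Veh, 297 and 268 CPM in sgBap1-Veh, 495, 619 and 507 CPM in NTC-CCl4 and 581, 1048 and 495 CPM in sgBap1-CCl4 livers, led by the proteoglycan Dcn with 38.6%. The CCl4 livers were all above the vehicle livers, and sgBap1-CCl4 replicate 2 was highest. In that liver Col1a1 at 402 CPM was above Dcn at 268 CPM, and the share of Dcn is that over the 10 livers together. Bile duct genes, which bear on Spp1, gave 3 higher and 0 lower of 8 in NTC livers (median 1.06) and 3 and 0 in sgBap1 livers (median 0.73, or 0.40 without replicate 2). They summed to 21.7 and 24.6 CPM in NTC-Veh, 18.9 and 21.1 CPM in sgBap1-Veh, 27.9, 31.9 and 35.3 CPM in NTC-CCl4 and 29.7, 28.2 and 27.2 CPM in sgBap1-CCl4 livers. The CCl4 livers were again all above the vehicle livers, and the genotypes overlapped under CCl4. Sinusoidal endothelium genes gave 3 higher and 0 lower of 6 in NTC livers (median 0.26) and 2 and 2 in sgBap1 livers (median -0.11, or -0.13 without replicate 2). Their sum, 158 and 149 CPM in NTC-Veh, 205 and 152 CPM in sgBap1-Veh, 190.5, 174 and 197 CPM in NTC-CCl4 and 165, 190.5 and 194 CPM in sgBap1-CCl4 livers, overlapped between treatments. The scavenger receptor Stab2 held 24.7% over the 10 livers together, with Clec4g above it in the mean of sgBap1-Veh. Mesothelium genes gave 0 higher and 0 lower of 6 in NTC livers (median 0.14) and 0 and 0 in sgBap1 livers (median 0.36, or -0.26 without replicate 2). They amounted to 1.23 and 19.3 CPM in NTC-Veh, 7.40 and 15.6 CPM in sgBap1-Veh, 4.84, 7.76 and 16.9 CPM in NTC-CCl4 and 10.4, 22.1 and 8.23 CPM in sgBap1-CCl4 livers, highest in sgBap1-CCl4 replicate 2. Msln held 24.0% over the 10 livers together, and led in the means of the sgBap1 groups only. Fat-cell genes gave 0 higher and 1 lower of 2 in NTC livers (median -0.76) and 0 and 1 in sgBap1 livers (median 2.26, or -1.01 without replicate 2).

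Hepatocyte genes gave 0 higher and 9 lower of 10 in NTC livers (median -1.18) and 0 and 6 in sgBap1 livers (median -1.01, or -1.06 without replicate 2). Summed, they stood at 161700.0 and 130602 CPM in NTC-Veh, 117654 and 122670.0 CPM in sgBap1-Veh, 75108, 82224 and 71737 CPM in NTC-CCl4 and 84114, 66200.3 and 84092 CPM in sgBap1-CCl4 livers, with albumin, Alb, at 76.3%, and the CCl4 livers were all below the vehicle livers. Genes of cell division gave 6 higher and 0 lower of 6 in NTC livers (median 5.18) and 6 and 0 in sgBap1 livers (median 4.16, or 4.04 without replicate 2). Their level was 36.1 and 34.3 CPM in NTC-Veh, 53.4 and 46.4 CPM in sgBap1-Veh, 396, 245 and 359 CPM in NTC-CCl4 and 305, 371 and 297 CPM in sgBap1-CCl4 livers, and the CCl4 livers were all above the vehicle livers. Mki67 held 33.4% over the 10 livers together and led with CCl4, whereas Pcna led in the means of both vehicle groups. Each listed gene had counts in at least 1 liver. In sgBap1-Veh against NTC-Veh livers, 53.4% of all tested genes and 7 of the 10 markers were above 0, the markers with a median of 0.39. Above 0 were 7 of 7 (median 1.10) T and NK cell genes, 9 of 9 (median 0.94) dendritic cell genes, 4 of 4 (median 0.69) B cell genes, 6 of 6 (median 0.81) genes of cell division and 8 of 9 (median 0.49) neutrophil genes. For cells of the tissue it was 3 of 10 (median -0.13) hepatocyte genes, 4 of 8 (median -0.05) bile duct genes, 5 of 8 (median 0.09) stellate cell genes, 5 of 6 (median 0.32) endothelium genes, 4 of 6 (median 0.18) mesothelium genes and 1 of 2 (median -0.10) fat-cell genes. EdgeR called 0 genes of these lists of other cells between genotypes with either treatment, and their part in the marker results was not tested.

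**Figure D3:**
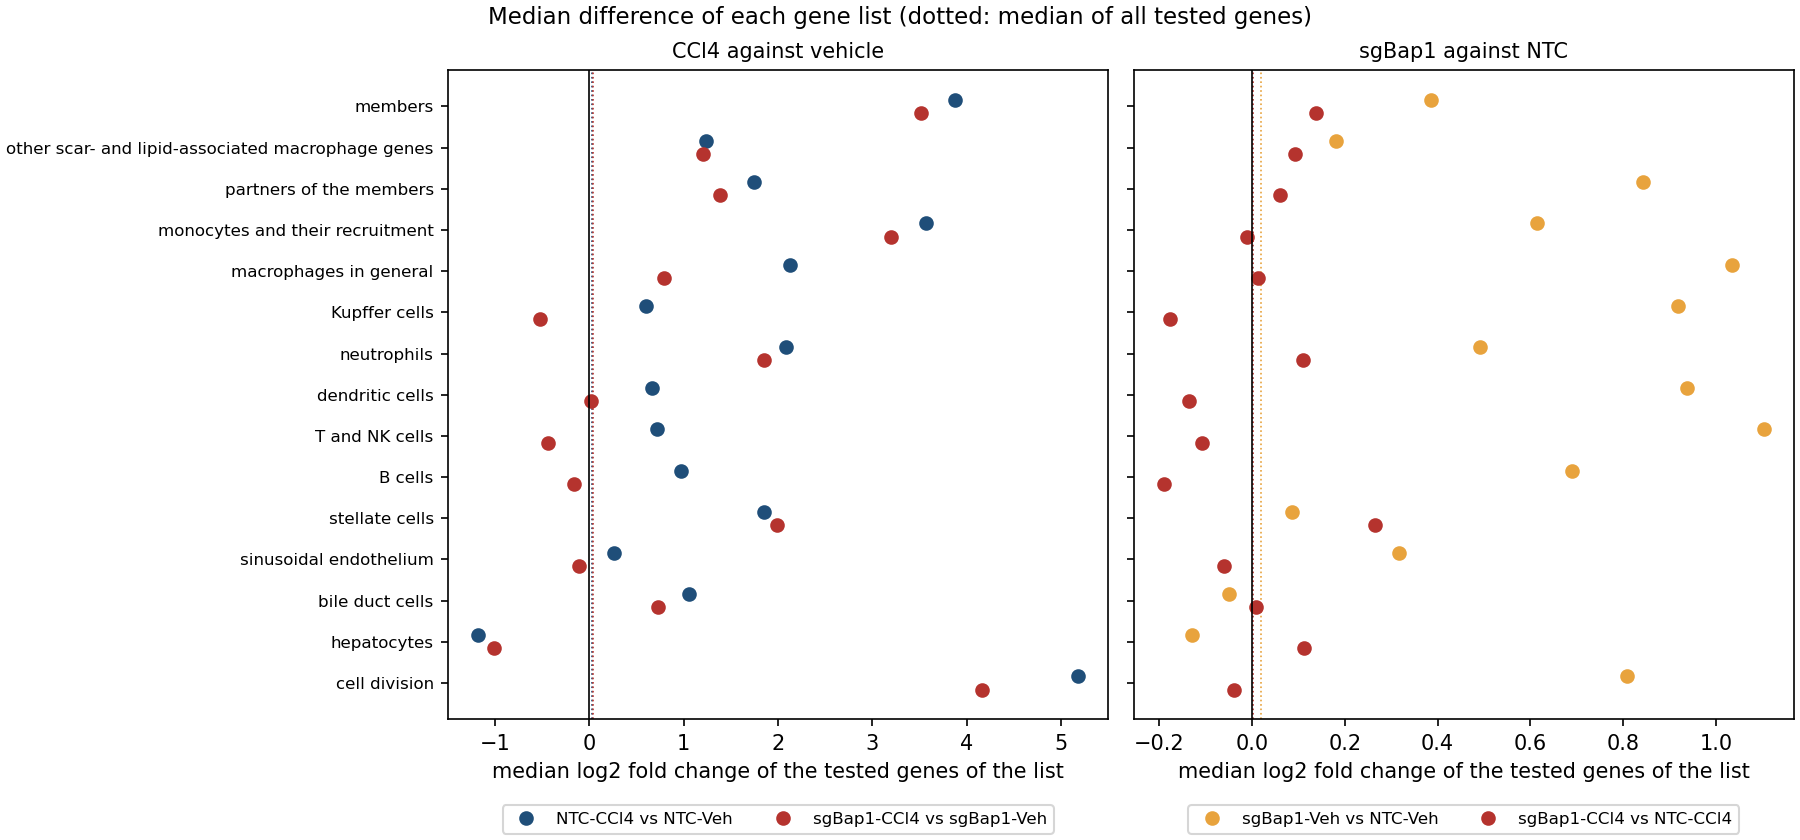
Median log2 fold change of the tested genes of each list, with CCl4 against vehicle on the left and sgBap1 against NTC on the right. Points are medians of 1 list, dotted lines the median of all tested genes. The markers and the monocyte genes lie far above the Kupffer cell genes with CCl4, and several immune lists lie above 0 with vehicle on the right.

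The markers were also set against the summed general macrophage genes of the same liver. Gpnmb amounted to 0.0484 and 0.144% of that sum in NTC-Veh and 0.0618 and 0.0437% in sgBap1-Veh livers, and to 8.05, 9.04 and 10.5% in NTC-CCl4 and 11.1, 11.4 and 7.66% in sgBap1-CCl4 livers. Each of the 6 CCl4 livers was above each of the 4 vehicle livers. Lgals3 stood at 2.02 and 1.45% in NTC-Veh, 2.15 and 2.04% in sgBap1-Veh, 21.7, 26.2 and 24.8% in NTC-CCl4 and 37.7, 34.3 and 33.8% in sgBap1-CCl4 livers. On this scale both sgBap1-Veh livers were slightly above both NTC-Veh livers, and all sgBap1-CCl4 livers were above all NTC-CCl4 livers. Spp1 stood at 13.8 and 16.2% in NTC-Veh, 7.76 and 12.4% in sgBap1-Veh, 25.2, 29.9 and 19.9% in NTC-CCl4 and 40.9, 36.0 and 34.8% in sgBap1-CCl4 livers. For Spp1 both sgBap1-Veh livers were below both NTC-Veh livers, and all sgBap1-CCl4 livers were above all NTC-CCl4 livers. Trem2 stood at 0.397 and 0.360% in NTC-Veh, 0.276 and 0.284% in sgBap1-Veh, 2.201, 2.72 and 1.72% in NTC-CCl4 and 1.96, 2.37 and 2.47% in sgBap1-CCl4 livers. Both sgBap1-Veh livers were below both NTC-Veh livers for Trem2, and the genotypes overlapped with CCl4. Ly6c2 stood at 0.387 and 0.154% in NTC-Veh, 0.320 and 0.503% in sgBap1-Veh, 1.36, 1.22 and 1.08% in NTC-CCl4 and 0.990, 0.880 and 0.914% in sgBap1-CCl4 livers. The vehicle genotypes overlapped for Ly6c2, and the sgBap1-CCl4 livers were all below the NTC-CCl4 livers. Fabp5 stood at 59.6 and 62.8% in NTC-Veh, 19.5 and 16.6% in sgBap1-Veh, 44.4, 14.3 and 19.6% in NTC-CCl4 and 9.36, 6.50 and 14.5% in sgBap1-CCl4 livers. It was highest in the NTC-Veh livers. Mmp12 was higher in both sgBap1-Veh than in both NTC-Veh livers and overlapped with CCl4, and Itgam, Itgax and Msr1 overlapped between genotypes under both treatments. Since Lyz2 makes up more of the sum with CCl4 than with vehicle, the sum does not stand for the same mix of genes in both. These ratios are descriptions without a test, and genes such as Spp1, Lgals3 and Fabp5 are not made by macrophages alone.

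**Figure D4:**
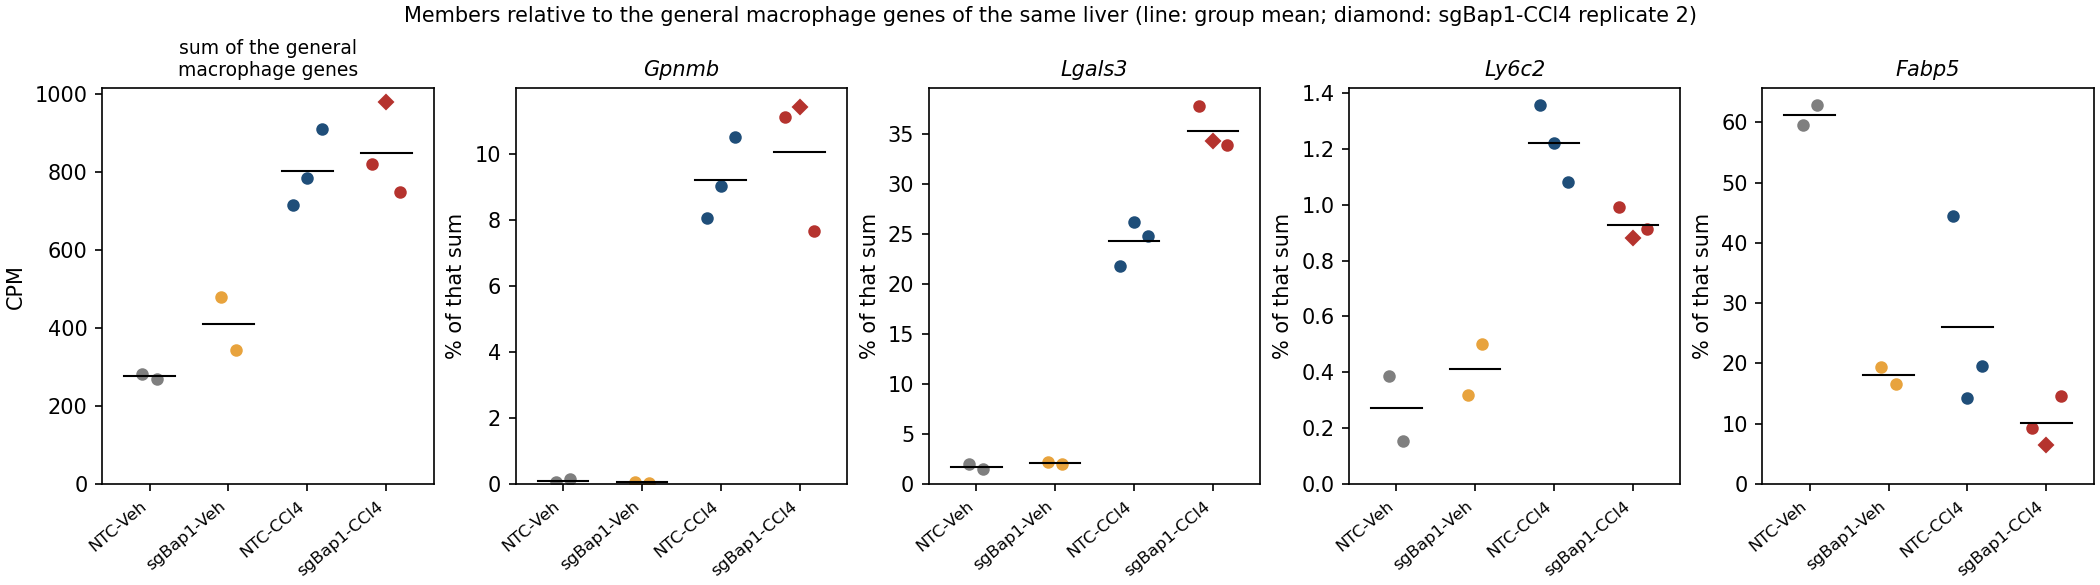
Summed level of the 10 general macrophage genes in each liver (left, CPM) and, as a percentage of that sum, Gpnmb, Lgals3, Ly6c2 and Fabp5. Points are livers, lines group means, and the diamond is sgBap1-CCl4 replicate 2. Gpnmb and Lgals3 are low in all vehicle livers, and Fabp5 is highest in the 2 NTC-Veh livers.

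The genes whose pattern was most like a marker were sought over the 10 livers, after the mean of the livers with the same treatment was subtracted from the log2 CPM of each gene. For Trem2 they were Uqcrc1, Ptger2, Spata6, Maf1 and Cyp1a2, with Pearson correlations of 0.913 to 0.961. For Gpnmb they were Sec24b, Zfyve16, Sorl1, Dcbld2 and Prkx, at 0.917 to 0.950. Spp1 was most like Trmt1, Hspa1b, Eef1a1, 2410006H16Rik and Gm8818, at 0.949 to 0.985. They are the 5 highest of all tested genes with at least 1 CPM on average, and are given as a description without a test.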

How the data were processed

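Bulk RNA-seq of 10 livers was analysed. The authors made stranded mRNA libraries, sequenced 2 reads of 50 bases per fragment, aligned them to GRCm38 with STAR 2.7.6a and quantified genes with Salmon 1.4.0. The deposited values are estimated counts per gene without normalization, of which 9.22% are not whole, and they were rounded. With edgeR 4.0.16 under R 4.3.3, genes were filtered by filterByExpr, libraries normalized by TMM, and 1 quasi-likelihood model of the 4 groups fitted (estimateDisp, glmQLFit with robust = TRUE, two-sided glmQLFTest). The SE is the log2 fold change divided by the square root of F. The log2 CPM used a prior count of 2. Alternatives were DESeq2 1.42.0, its size factors, library size alone, no filter, a mean of 10 counts, a replicate block, only the 2 groups compared, and each liver left out in turn. The steps were tested on simulated counts. Named genes are the 10 markers, Bap1, 9 genes of the lists, the most abundant and the most changed genes of each list, and the 5 genes most like Trem2, Gpnmb and Spp1, besides the fat-cell genes and the genes that share sequence. Markers and lists were chosen with earlier results of these data known. Positions, exon lengths and shared stretches of 50 bases come from GENCODE vM21, whereas the authors counted on vM25, and promoter sequences from RefSeq. No batch is named in the sources used here, so none was tested.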

Additional observations from a re-analysis of the deposited data

How the results depend on the processing

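The 9 markers raised by CCl4 were called higher in both genotypes under every other processing and with any CCl4 liver left out. With a vehicle liver left out, their log2 fold changes stayed positive. Only these 9 had a call to lose, and only in the CCl4 comparisons. The genotype comparisons and the interaction started with no marker called, so that their refits had no call to lose. All comparisons together gave 840 refits. In 809 of these a marker kept its direction and its side of the threshold, in 6 it newly passed, and in 25 its direction turned, each time for a difference that was not called. The cause was not tested.

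In sgBap1-Veh against NTC-Veh livers, the 89 genes called became 47 with library size alone, 177 with no filter, 562 with DESeq2 and 37 with only the 2 groups, and 0 to 147 with 1 liver left out. Markers called were 2 with DESeq2 and 0 to 1 with 1 liver left out. In sgBap1-CCl4 against NTC-CCl4 livers, the 43 genes became 113 with no filter, 502 with DESeq2 and 27 with only the 2 groups, and 1 to 49 with 1 liver left out, and the markers called were 1 with no filter and 1 with DESeq2. For the interaction, 0 genes became 8 with library size alone, 103 with no filter, 420 with DESeq2 and 0 to 12 with 1 liver left out, with 1 marker called by DESeq2. The CCl4 comparisons called 7343 to 9319 genes in NTC and 7803 to 9578 in sgBap1 livers with 1 liver left out.

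With 1 liver left out, log2 fold changes that turned ranged as follows. In NTC-CCl4 against NTC-Veh livers they were Fabp5 from -0.22 to 0.56. In sgBap1-CCl4 against sgBap1-Veh livers they were Fabp5 from -0.17 to 0.55. In sgBap1-Veh against NTC-Veh livers they were Trem2 from -0.10 to 0.34, Gpnmb from -0.79 to 0.77 and Spp1 from -0.15 to 0.0484. In sgBap1-CCl4 against NTC-CCl4 livers they were Trem2 from -0.0251 to 0.29, Msr1 from -0.29 to 0.0606, Gpnmb from -0.00573 to 0.44, Itgam from -0.0606 to 0.33 and Itgax from -0.13 to 0.0898. For the interaction they were Trem2 from -0.21 to 0.23, Gpnmb from -0.55 to 1.01, Fabp5 from -0.43 to 0.36 and Lgals3 from -0.54 to 0.0718.

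Livers of the same replicate number did not clearly deviate together. Between genotypes, deviations from the group means correlated at 0.0107, 0.0210 and -0.149 for CCl4 livers of the same number and at -0.0140 for vehicle livers. Between treatments, livers of the same number correlated at -0.129 to 0.102, and those of different numbers at -0.157 to 0.157. In a group of 2 livers the deviations mirror each other, so these values cannot exclude pairing. A replicate block called 1 gene in sgBap1-Veh against NTC-Veh, 3 in sgBap1-CCl4 against NTC-CCl4, 0 for the interaction, and 8292 and 8746 with CCl4 in NTC and sgBap1 livers, with 9 markers higher in each of the last pair. Under it the interaction of Fabp5 turned to 0.0209. A vehicle group left with 1 liver was assumed to vary like the other groups. In vehicle livers counts were few for Gpnmb (4 to 14), Mmp12 (11 to 23), Trem2 (26 to 49) and Ly6c2 (15 to 57).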
